A study of Neurospora crassa with 22 samples.

Results

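The peaks described here lie beside 7 genes of the filamentous fungus Neurospora crassa: the 6 main lytic polysaccharide monooxygenase genes gh61-1 (NCU02240), gh61-2 (NCU07760), gh61-3 (NCU02916), gh61-4 (NCU01050), gh61-5 (NCU08760) and NCU07898, and cdh-1 (NCU00206). A peak was counted for a gene when the deposited gene columns named the gene beside it, or when its summit lay within 3000 bp of the start codon. By this rule 91 of 42691 peaks in 17 lists belonged to the 7 genes, which are 7 of 9729 protein-coding genes on the chromosomes. The columns named 70 of the 91 peaks, and 21 were counted by position alone. Of the 119 combinations of a gene and a list, 66 held a peak.

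Lytic polysaccharide monooxygenases are secreted copper enzymes that cut the chains of crystalline cellulose by oxidation and so open the surface to cellulases. They need electrons, and cellobiose dehydrogenase, the product of cdh-1, supplies them while it oxidises cellobiose. The products of gh61-1, gh61-3 and gh61-4 leave chains with an oxidised non-reducing end, that of gh61-5 leaves oxidised reducing ends, and those of gh61-2 and NCU07898 leave both. CLR-1 and CLR-2 are zinc cluster transcription factors required for growth on cellulose, and XLR-1 is the corresponding factor for xylan.

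Peaks came from chromatin immunoprecipitation and sequencing (ChIP-seq) of epitope-tagged factors in strain OR74A, grown for 16 h on sucrose in Vogel's medium and then moved to a new carbon source. Avicel is microcrystalline cellulose. The CLR-1-GFP strain carried his-3::p_ccg1::clr1-GFP with deltaclr1::HygR, mat A, and had 1 list on Avicel at 24 h, 3 on Avicel at 4 h and 2 on sucrose at 4 h. The CLR-1-V5 strain carried clr1-V5::HygR and deltamus51::bar, mat a, and had 1 list on Avicel at 4 h. For CLR-2 the construct was his-3::p_ccg1::mCherry-clr2, with 1 list on Avicel at 24 h from a mat a heterokaryon whose label names no deletion, and 3 on Avicel at 4 h from a matA strain with deltaclr2::HygR. The XLR-1-GFP strain carried his-3::p_ccg1::xlr1-GFP with deltaxlr1::HygR and had 3 lists on Avicel and 3 on xylan, all at 4 h. The ccg-1 promoter thus drove every tagged factor except CLR-1-V5, whose label names no antibody. The labels give times without a unit, read here as hours, and do not say whether replicates came from separate cultures.

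Lists held 701 to 8194 peaks, with 10 to 40878 sequence tags per peak and list medians of 14 to 2898 tags. The authors' fold enrichment of each peak, tags over local background, describes that peak within its own list. In CLR-2 at 4 h, list 1 had 94.76% of its folds below 1 and list 3 had 33.9%, while list 2 and the 24 h list had none. The CLR-1-GFP list at 24 h had a median of 26 tags per peak and listed 7081 genes. The smallest number of genes in any list was 904, on xylan.

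CLR-1 lists at 4 h held between 1 and 6 of the 7 genes, and every CLR-2 list held all 7. XLR-1 lists on Avicel held between 2 and 7, with the strongest summit of each gene downstream of the start codon, and XLR-1 lists on xylan held none. A gene was called for a group when at least 2 of its lists held a peak, or when the list did where there was but 1. In CLR-1-GFP on Avicel at 24 h 7 of the 7 genes were called, where the same rule called 72.8% of all genes, so most genes of the genome were called with them. In CLR-1-V5 2 were called, against 13.1% of all genes. In CLR-1-GFP on Avicel at 4 h 4 were called, against 19.7% of all genes, and on sucrose 1, against 8.61%. CLR-2 called 7 at 24 h, against 26.6% of all genes, and 7 at 4 h, against 18.7%. XLR-1 called 4 on Avicel, against 34.9% of all genes, and 0 on xylan, against 10.2%. Without list 1 or without list 3 the 4 h calls on Avicel were 2 for CLR-1-GFP and 2 for XLR-1. The share of all genes called from these reduced groups is not given. Without sucrose list 1 the sucrose call was 3, against 33.1% of all genes in the list that remains.

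Counting only summits upstream of the start codon and within 1500 bp of it, a rule added after the data were seen, gave the following counts. Start codons could be placed for 7788 of the genes, including all 7. CLR-1-GFP at 24 h called 6 of the 7 genes by this rule, against 42.5% of placed genes. CLR-1-V5 called 2, against 4.12%, and CLR-1-GFP at 4 h called 4 on Avicel, against 8.46%, and 1 on sucrose, against 3.69%. CLR-2 called 7 at 24 h, against 11.3%, and 7 at 4 h, against 3.89%. XLR-1 called 0 on Avicel, against 8.12%, and 0 on xylan, against 4.12%. With shares this low, 0 of 7 genes is near the background. Over all lists such a summit occurred in 24 of 49 combinations of a gene and a CLR-1 list, 27 of 28 for CLR-2 and 1 of 42 for XLR-1. Single lists held such a summit for 3.3% to 34% of all genes in CLR-1. The shares were 2.48% to 9.26% in CLR-2 and 3.35% to 21.7% in XLR-1, so the XLR-1 count is near or below the background.

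**Figure D1:**
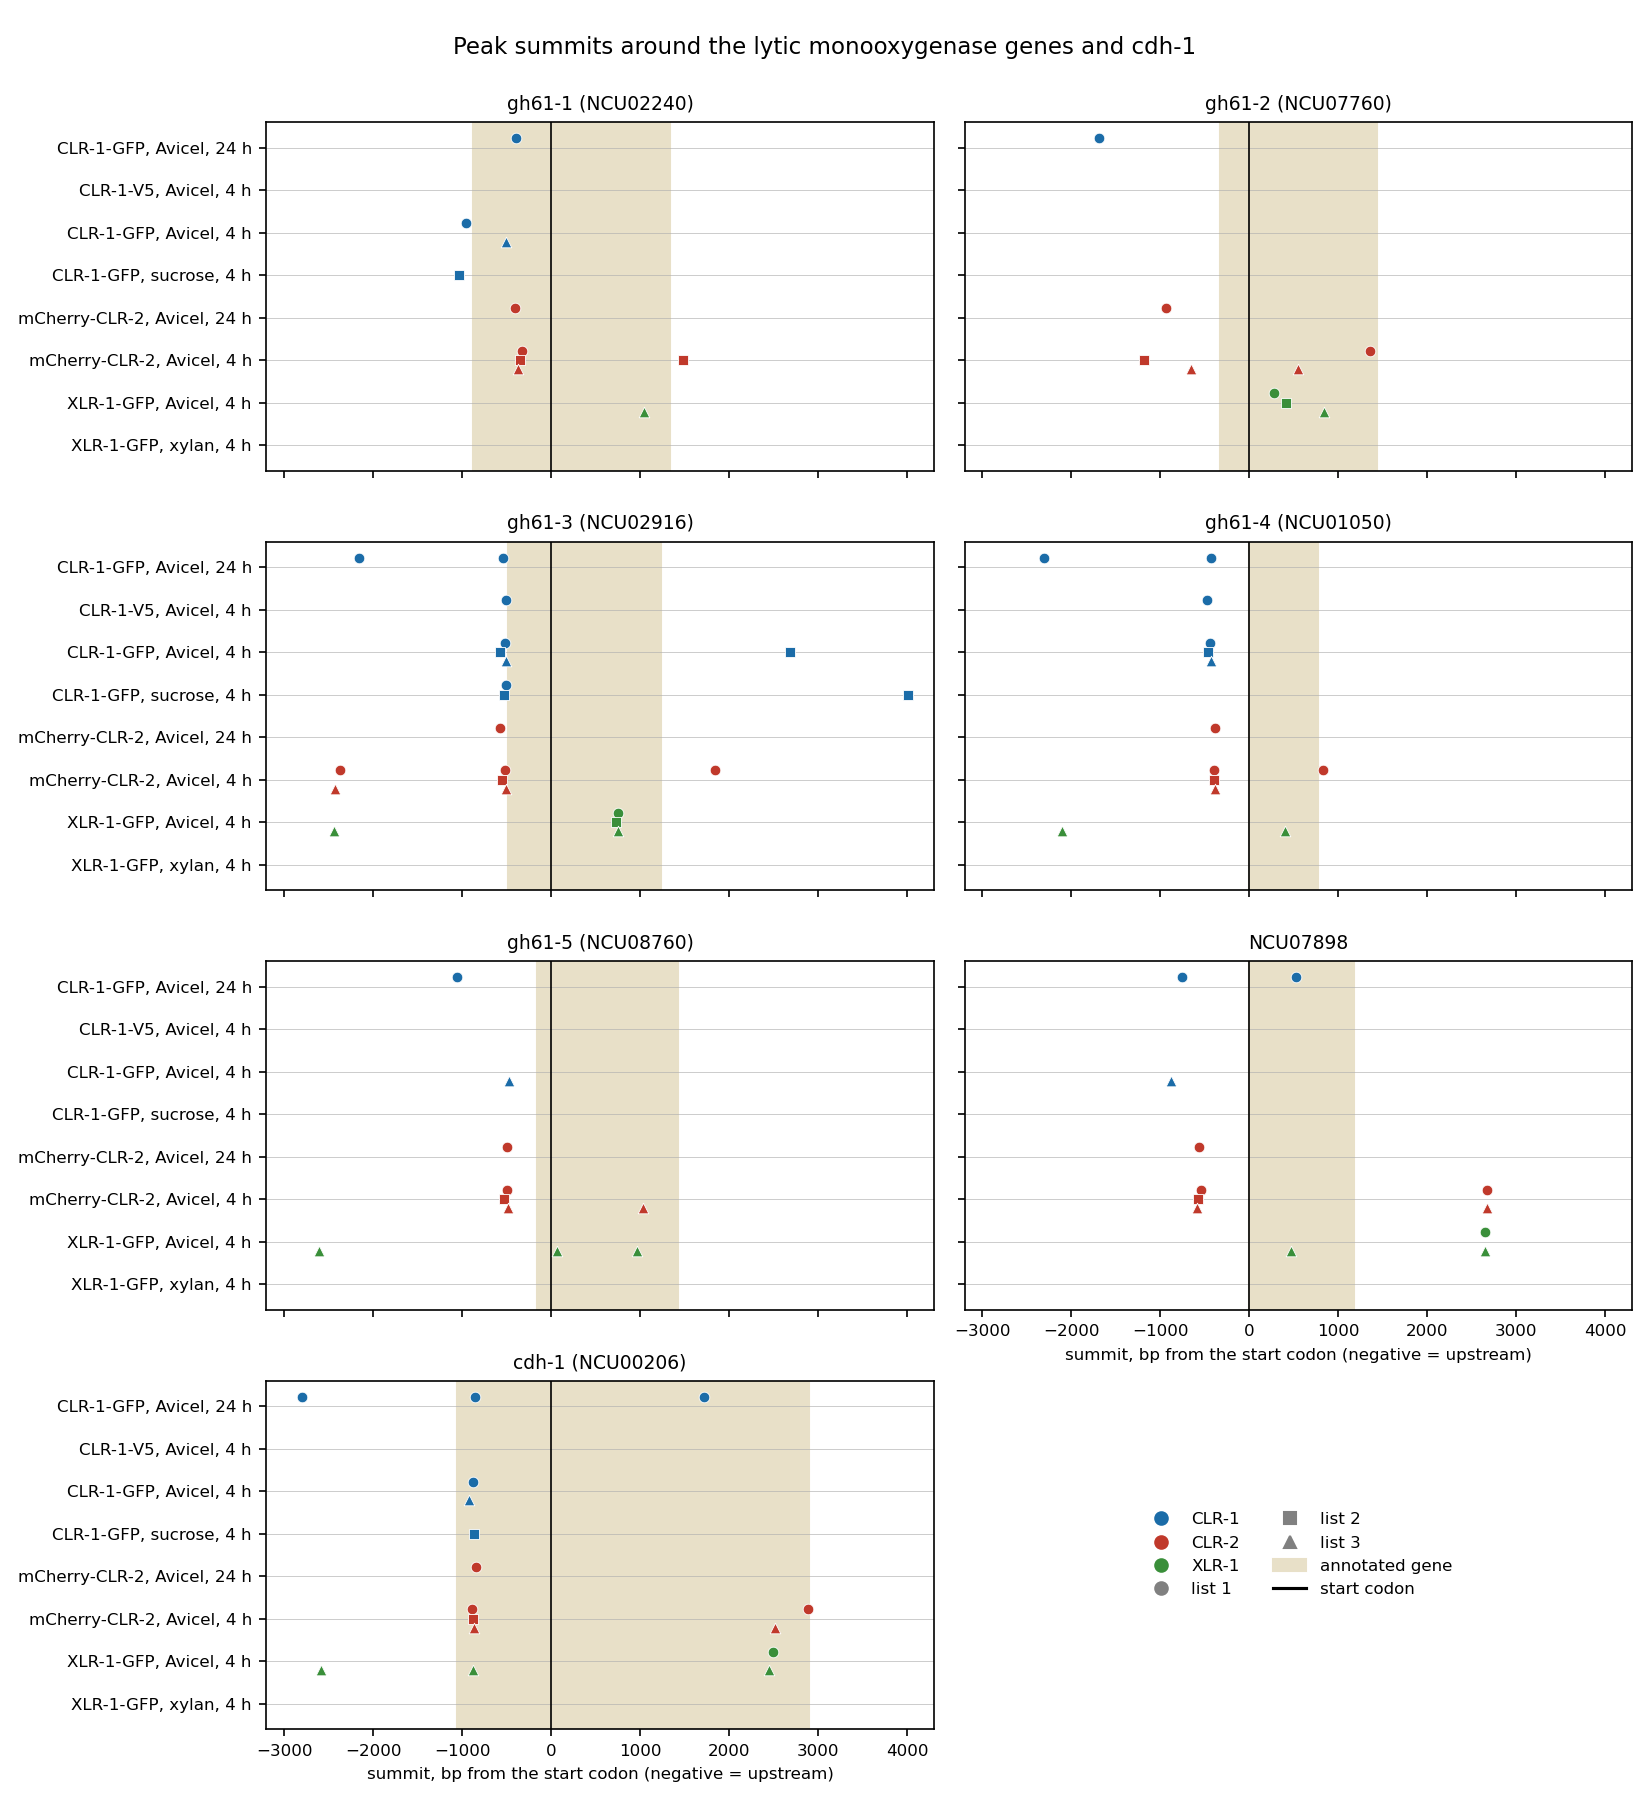
Positions of the peak summits of each gene, in bp from the start codon (x axis, negative upstream), for each group (rows), with circles, squares and triangles for lists 1, 2 and 3 and the annotated gene shaded. CLR-1 and CLR-2 summits stack upstream of the start codon, most tightly for gh61-3, gh61-4 and cdh-1, while XLR-1 summits on Avicel lie mainly inside or beyond the gene and the xylan rows are empty.

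Gene gh61-3, on chromosome I from 8701416 to 8703127 of the NC12 assembly on the plus strand, was in 14 of 17 lists, the most of the 7 genes. CLR-1 summits lay 506 to 580 bp upstream of its start codon in 7 of 7 lists. Their fold was 13.6 in CLR-1-GFP at 24 h and 9.18 in CLR-1-V5, and 23.1, 28.1 and 23.6 in lists 1, 2 and 3 of CLR-1-GFP on Avicel at 4 h. On sucrose it was 10.9 in list 1 and 3.85 in list 2. The 3 Avicel values at 4 h are all above those on sucrose, but the median fold of the lists differed as well, at 4.89, 8.49 and 4.95 on Avicel and 3.28 and 2.11 on sucrose. Within sucrose list 2 the fold of 3.85 ranked 28 of 2111, so by fold the peak was high in its own list. Its p-value score ranked 248, and its false discovery rate was 16.53%. It was the only one of the 7 genes in both sucrose lists.

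CLR-2 summits at gh61-3 lay 576 bp upstream at 24 h and 516, 549 and 509 bp upstream in lists 1, 2 and 3 at 4 h. Their folds were 13.8 at 24 h and 0.30, 6.51 and 3.85 at 4 h. In list 1 the peak with the highest fold lay elsewhere, 2368 bp upstream, with a fold of 0.39. Its false discovery rate was 88.93%, against 34.75% for the summit 516 bp upstream. Another list 1 peak lay 1842 bp downstream, with a fold of 0.22. The medians of the CLR-1 and CLR-2 summit positions within 1500 bp upstream were 15.5 bp apart, less than the 74 bp that these CLR-1 summits spanned. XLR-1 on Avicel had summits 750, 729 and 749 bp downstream of the start codon, inside the gene, with folds of 18.6, 10.5 and 12.8 and 27, 16 and 143 tags. Avicel list 3 also had a summit 2441 bp upstream with a fold of 8.04 and 159 tags, 15 bp from a CLR-2 summit and 284 bp from the nearest CLR-1 summit. The position inside the gene thus repeated between 729 and 750 bp in 3 lists, with the nearest CLR-1 summits 1235 to 1256 bp and the nearest CLR-2 summits 1092 to 1113 bp away.

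Gene gh61-4, on chromosome V from 2769232 to 2770004 on the plus strand, was in 10 lists. CLR-1 summits lay 426 to 471 bp upstream of its start codon, with folds of 8.83 in CLR-1-GFP at 24 h, 5.82 in CLR-1-V5, and 5.16, 5.51 and 13.6 in CLR-1-GFP on Avicel at 4 h. No peak was listed in either sucrose list. CLR-2 summits lay between 387 and 396 bp upstream in all 4 lists, a spread of 9 bp, the narrowest of the 7 genes. The CLR-2 folds were 14.6 at 24 h and 0.43, 12.3 and 6.83 at 4 h. The ranges of the CLR-1 and CLR-2 positions did not overlap, with medians 46.5 bp apart, and this difference was not tested. XLR-1 listed it on Avicel in list 3 alone, with a summit 402 bp downstream, inside the gene, and a fold of 9.80.

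Gene gh61-1, on chromosome VII from 3218962 to 3221181 on the minus strand, was in 9 lists. CLR-2 summits lay 402 bp upstream of its start codon at 24 h and 328, 349 and 378 bp upstream at 4 h. Their folds were 14.9 at 24 h and 0.38, 8.01 and 4.92 at 4 h. CLR-1 summits were more scattered, 397 bp upstream at 24 h, 961 and 504 bp in lists 1 and 3 on Avicel at 4 h, and 1038 bp in sucrose list 2. The CLR-1 folds were 5.94 at 24 h, 9.09 and 7.70 on Avicel at 4 h, and 2.37 on sucrose. The false discovery rate of the sucrose peak was 16.22%. XLR-1 had a summit 1042 bp downstream in Avicel list 3, with a fold of 6.54 below the list's median of 8.30.

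Gene gh61-5, on chromosome III from 5242495 to 5244087 on the plus strand, was in 7 lists, the fewest of the 7 genes. CLR-2 summits lay 493 bp upstream of its start codon at 24 h and 493, 528 and 480 bp upstream at 4 h. The folds were 20.1 at 24 h, the highest of all 1672 peaks in that list, and 0.76, 12.9 and 8.80 at 4 h. The 24 h peak held 15920 tags. CLR-1-GFP listed it at 4 h on Avicel in list 3 alone, 478 bp upstream with a fold of 5.55. At 24 h the CLR-1 summit lay 1056 bp upstream in a peak of 201 bp and 22 tags, fewer than the list's median of 26, so position and depth both differed from the 4 h peak. XLR-1 had its strongest summit 961 bp downstream, in Avicel list 3, with a fold of 11.3.

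NCU07898, on chromosome IV from 1412641 to 1413821 on the minus strand, was in 8 lists. CLR-2 summits lay 570 bp upstream of its start codon at 24 h and 540, 573 and 591 bp upstream at 4 h, with folds of 13.3 at 24 h and 0.45, 8.84 and 4.29 at 4 h. The CLR-1 summits lay 757 bp upstream at 24 h and 875 bp upstream in Avicel list 3 at 4 h, with folds of 6.94 and 8.52. The medians of the CLR-1 and CLR-2 positions were 244.5 bp apart, on 2 and 4 summits. XLR-1 on Avicel had a summit 2652 bp downstream in list 1, which the deposited columns place in NCU07899, with a fold of 12.4. List 3 had one 2644 bp downstream, also placed in NCU07899, and one 466 bp downstream, with folds of 6.03 and 9.05. The XLR-1 call of NCU07898 thus depends on the summit in NCU07899, the only one in list 1. CLR-2 lists 1 and 3 at 4 h also had summits there, 2666 and 2670 bp downstream, with folds of 0.30 and 1.41.

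Gene gh61-2, on chromosome V from 394274 to 396048 on the plus strand, was in 8 lists and differed from the others in its CLR-1 and CLR-2 peaks. CLR-1 had no peak beside it in any 4 h list, and at 24 h only a peak of 25 tags 1689 bp upstream with a fold of 6.36. CLR-2 had a summit 935 bp upstream at 24 h, with a fold of 8.39. At 4 h the strongest CLR-2 peaks in lists 1, 2 and 3 lay 1353 bp downstream, 1189 bp upstream and 547 bp downstream, with folds of 0.20, 1.96 and 1.70, so no position repeated. The peak of list 1 was counted by position alone. List 3 also had a CLR-2 summit 659 bp upstream, with a fold of 0.62 that ranked 4499 of 4528 and a false discovery rate of 38.2%. The upstream call of gh61-2 for CLR-2 at 4 h rests on this peak and that of list 2. XLR-1 on Avicel had summits inside the gene in 3 of 3 lists, 279, 414 and 843 bp downstream of the start codon. The XLR-1 folds were 22.7, 16.99 and 10.1 with 58, 22 and 151 tags. Each was above the median fold of its list.

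The electron donor gene cdh-1, on chromosome III from 3004156 to 3008108 on the minus strand, was in 10 lists. CLR-1 summits lay 852 bp upstream of its start codon at 24 h, 875 and 927 bp upstream in Avicel lists 1 and 3 at 4 h, and 865 bp upstream in sucrose list 2. The folds were 13.5 at 24 h, 19.0 and 8.07 on Avicel at 4 h, and 1.86 on sucrose, the last below that list's median of 2.11. The false discovery rate of the sucrose peak was 16.13%. CLR-2 summits lay 848 bp upstream at 24 h and 895, 878 and 864 bp upstream at 4 h, with folds of 14.97 at 24 h and 0.32, 9.01 and 11.1 at 4 h. The 11.1 was the highest fold of all 4528 peaks in list 3. The medians of the CLR-1 and CLR-2 positions, 870 and 871 bp, were 1 bp apart. These summits lie inside the annotated gene, in the part before the start codon, as do most of those of gh61-1.

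XLR-1 at cdh-1 had summits 2497 and 2450 bp downstream in Avicel lists 1 and 3, with folds of 18.6 and 11.8. List 3 also had a summit 874 bp upstream with a fold of 10.3 and 42 tags, the only XLR-1 summit within 1500 bp upstream of any of the 7 genes. It lay 1 bp from the nearest CLR-1 summit and 4 bp from the nearest CLR-2 summit.

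**Figure D2:**
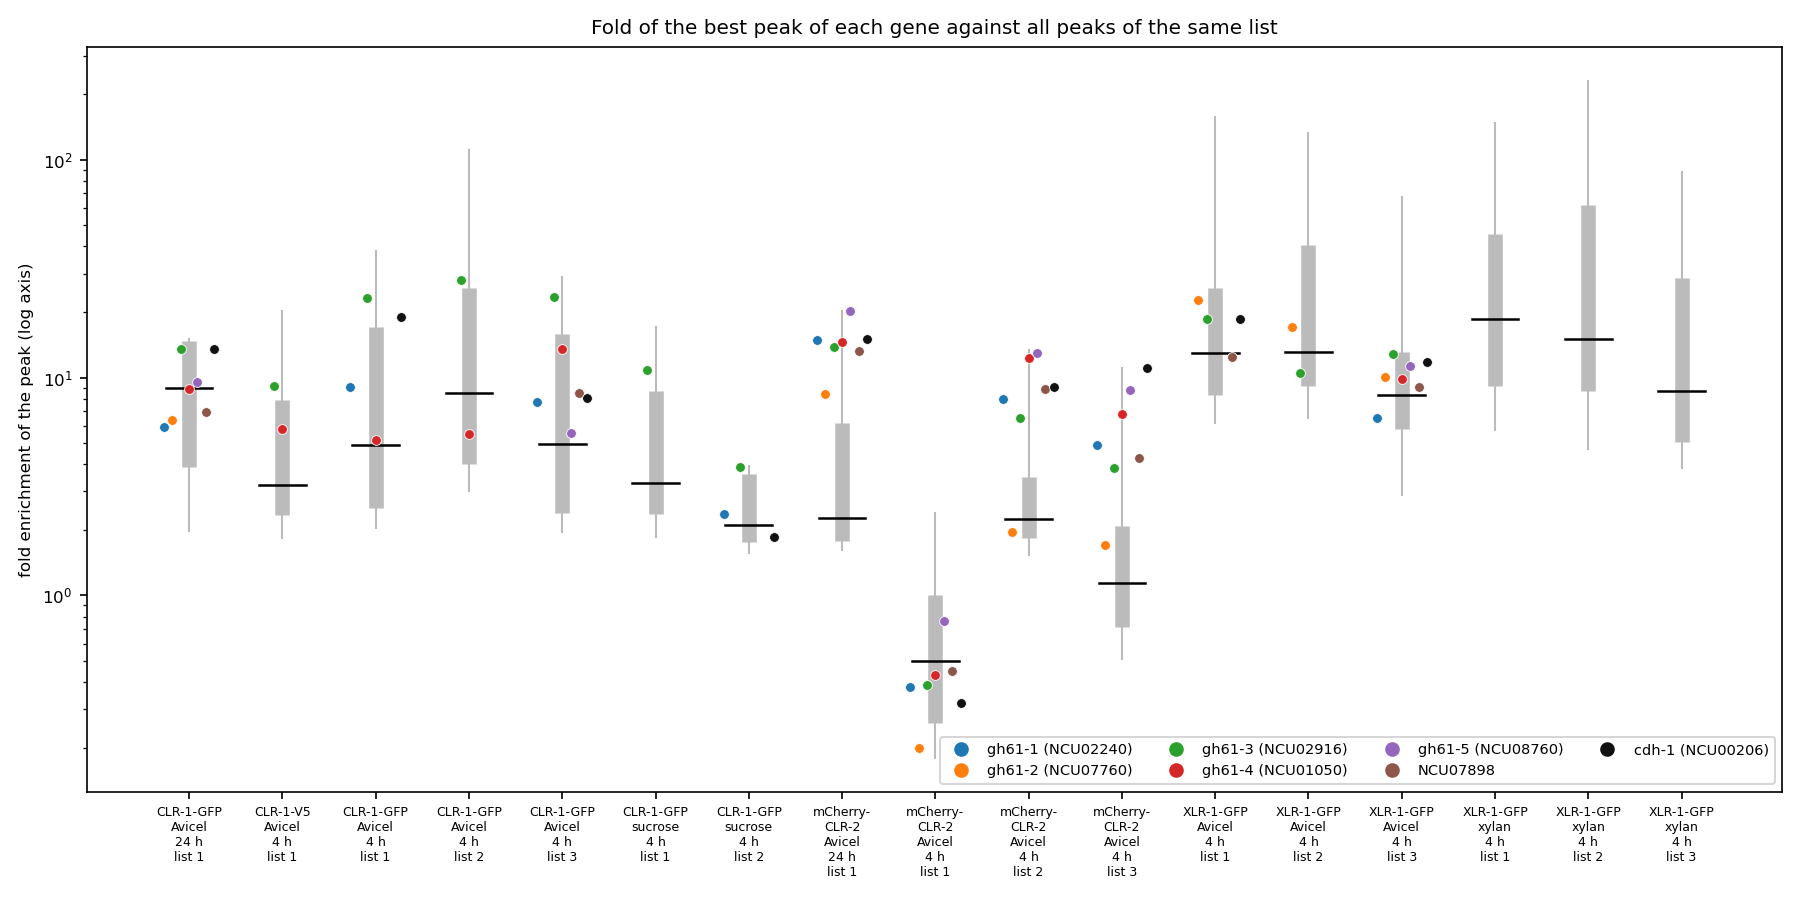
Fold enrichment (log axis) of the strongest peak of each gene (points) in each of the 17 lists, with the median of all peaks of the list (black line), their central 90% (grey bar) and full range (grey line). In the CLR-2 list at 24 h all 7 genes sit above the grey bar, in CLR-2 lists 2 and 3 at 4 h all but gh61-2 do, in CLR-2 list 1 none does, and the xylan lists have no points.

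Set against all peaks of the same list, the folds stood highest in CLR-2. In the 24 h CLR-2 list the 7 genes ranked between 1 and 35 by fold among 1672 peaks, and 6 of 7 were in the best 1%. All 7 also had the score of 3100 that 114 peaks shared, so the score could not rank them. At 4 h 6 of 7 were in the best 1% in list 2 and 6 of 7 in list 3. List 1, with 94.76% of its folds below 1, had 0 of 7 in the best 1% and 1 of 7 at or above the list's median. The gene outside the best 1% at 24 h and in lists 2 and 3 was gh61-2. In CLR-1 at 4 h only gh61-3 reached the best 1%, in Avicel list 3 and in sucrose list 2, there through a peak 4014 bp downstream of its start codon that the columns name beside it. XLR-1 placed 0 genes in the best 1% of any list. The false discovery rates that the authors give in CLR-2 list 2 were 5.26% to 13.68% for the 6 genes and 100% for gh61-2, in a list whose median is 100%. In list 1 they were 49.84% for gh61-1, 68.51% for gh61-2, 5.04% for cdh-1 and 34.75% for the gh61-3 summit 516 bp upstream. At a rate of at most 5%, lists 1, 2 and 3 held 3, 0 and 7 of the 7 genes, against 10.3%, 0.0308% and 16.3% of all genes.

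The strongest peaks of XLR-1 lay downstream of the start codon, and those of the other factors mostly upstream. On Avicel 13 of 13 strongest XLR-1 peaks lay downstream of the start codon, against 5576 of 11170 combinations over all placed genes. Inside the gene lay 12 of 13, or 92.3%, against 40.6% of these combinations. For CLR-1-GFP on Avicel at 4 h 12 of 12 lay upstream within 1500 bp, or 100%, against 33% over all placed genes. For CLR-2 the shares were 100% at 24 h, against 32.4% over all placed genes, and 85.7% at 4 h, against 18.8%. They were 85.7% in CLR-1-GFP at 24 h, against 30.3%, and 75% on sucrose, against 33%. In CLR-1-V5 both of its peaks counted, against 23.5%. Downstream lay 2 of 21 strongest CLR-2 peaks at 4 h, against 2935 of 6756 over all placed genes. On sucrose 1 of 4 lay downstream, against 1421 of 4472. Median distances from the start codon at 4 h on Avicel were 513 bp for the 7 genes in CLR-1-GFP, against 1750 bp over all placed genes, and 540 bp in CLR-2, against 1910 bp. These shares are descriptions, since the combinations share lists and genes.

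Weaker CLR-2 peaks also occurred downstream of the start codon. At 4 h 22 of the 32 CLR-2 peaks were upstream and 10 downstream, against 15 downstream of 20 for XLR-1 on Avicel. Of the 20 XLR-1 peaks 2 had a CLR-1 summit within 100 bp and 7 had a CLR-2 summit within 100 bp. The same count over all XLR-1 peaks is not given, so these counts have no background beside them. The 7 include the summits in NCU07899 of XLR-1 lists 1 and 3. Except at the cdh-1 summit 874 bp upstream, the CLR-2 folds in the 7 pairs were 0.30 to 1.79. The pairs included the summit at gh61-5, 961 bp downstream in XLR-1 and 1037 bp in CLR-2 list 3, and that at cdh-1, 2497 bp downstream in XLR-1 list 1 and 2514 bp in CLR-2 list 3. The CLR-2 folds of these summits were 1.79 and 1.73, against 8.80 and 11.1 for the upstream CLR-2 summits of the same genes in that list. Peak lists of the mock pulldowns were not analysed here, so whether a pulldown of GFP or mCherry alone gives a peak at these positions was not tested.

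**Figure D3:**
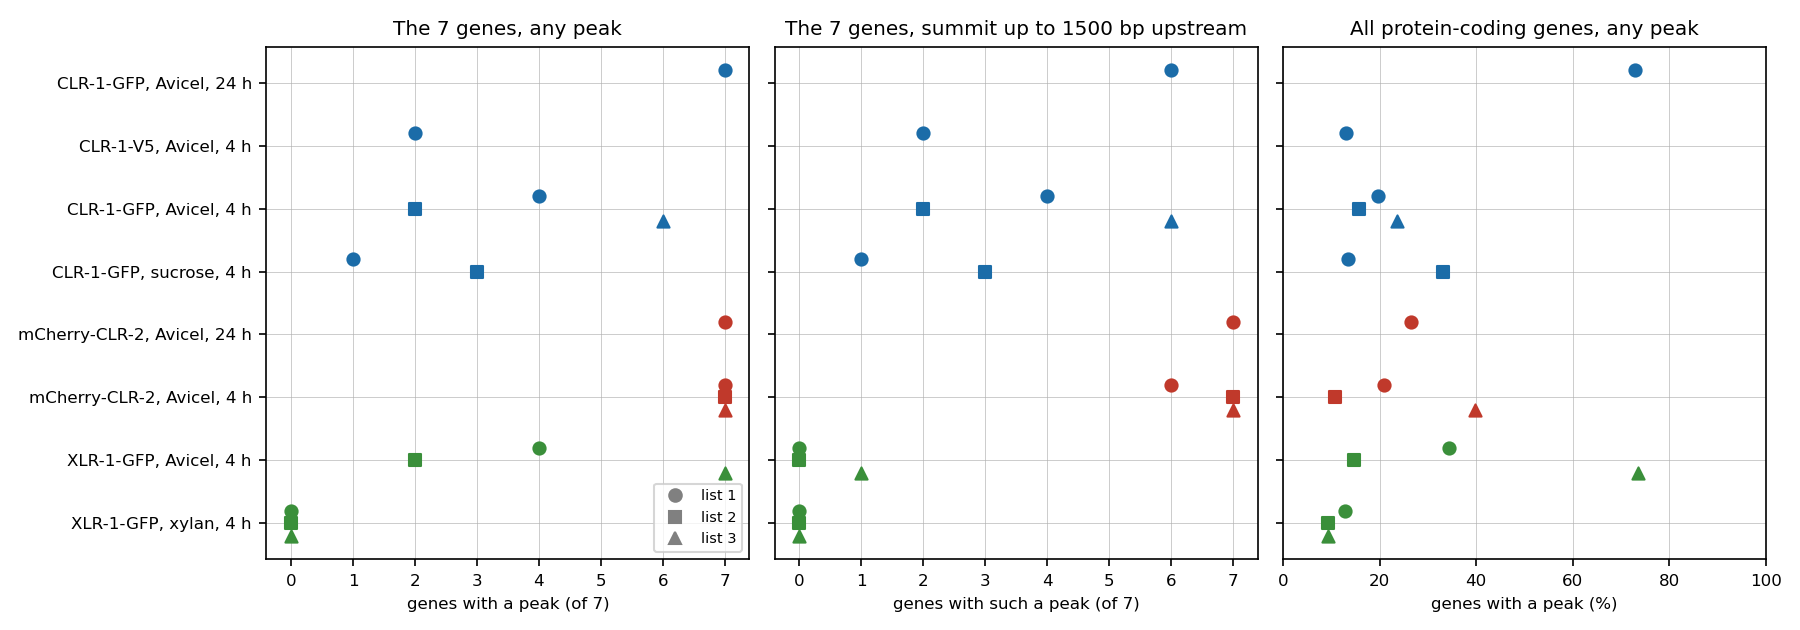
Number of the 7 genes with a peak in each list (left), with a summit up to 1500 bp upstream (middle), and the percent of all protein-coding genes with a peak (right), by group, with circles, squares and triangles for lists 1, 2 and 3. CLR-2 lists hold 7 genes whether they cover 10.7% or 39.8% of all genes, while XLR-1 on Avicel holds 4, 2 and 7 as its lists cover 34.3%, 14.7% and 73.6%.

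The number of genes per list was tested where a group had at least 2 lists. The 3 CLR-1-GFP lists on Avicel at 4 h held 4, 2 and 6 of the 7 genes, and the 2 sucrose lists held 1 and 3. The groups overlapped, with means of 4 ± 2 (SD, n = 3) on Avicel and 2 ± 1.41 (SD, n = 2) on sucrose, and the difference of 2 did not pass (exact two-sided permutation test, p = 0.4, adjusted p = 0.5 over 5 comparisons). The smallest p that this design allows is 0.2. XLR-1 lists held 4, 2 and 7 genes on Avicel and 0, 0 and 0 on xylan, without overlap. The share of all genes listed did not overlap either, at 34.3%, 14.7% and 73.6% for the Avicel lists against 12.9%, 9.42% and 9.29% for the xylan lists, and 0 of 7 is near these last shares. Their difference of 4.33 genes gave p = 0.1 by the exact permutation test, the smallest that 3 lists against 3 allow, and an adjusted p of 0.25.

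Between factors on Avicel at 4 h, CLR-1 lists held 4 ± 2 and CLR-2 lists 7 ± 0 genes (SD, n = 3 each), without overlap. The share of all genes listed did overlap, at 19.7%, 15.8% and 23.7% for CLR-1 and 21%, 10.7% and 39.8% for CLR-2. The difference of -3 also gave the smallest exact p of 0.1 and an adjusted p of 0.25. CLR-1 and XLR-1 differed by -0.333 genes (XLR-1 4.33 ± 2.52, SD, n = 3; exact permutation p = 1, adjusted p = 1). CLR-2 and XLR-1 differed by 2.67 genes (exact permutation p = 0.4, adjusted p = 0.5). These 3 comparisons share lists with each other, and the carbon source comparisons use the same CLR-1 and XLR-1 lists on Avicel. Differences between factors changed direction with the rule for a peak: at a fold of at least 5 CLR-1 minus CLR-2 was 1 and CLR-2 minus XLR-1 was -1.33, and by summits upstream within 1500 bp CLR-1 minus XLR-1 was 3.67. At that fold the CLR-1 lists held 15.3%, 15.2% and 16.1% of all genes and 4, 2 and 6 of the 7. The CLR-2 lists held 0%, 0.545% and 0.38% of all genes and 0, 6 and 3 of the 7, and the XLR-1 lists 34.3%, 14.7% and 73% and 4, 2 and 7. By summits upstream within 3000 bp the XLR-1 difference between Avicel and xylan was 1.33 genes, and 0 of 7 genes were called on Avicel. Avicel lists 1, 2 and 3 then held 0, 0 and 4 of the 7, against 13.9%, 6.29% and 39.9% of all genes.

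Groups with a single list are given side by side, with no test. The CLR-1 list at 24 h held 7 genes and the 4 h lists 4, 2 and 6. The 3 genes missing from the 4 h calls, gh61-2, gh61-5 and NCU07898, had 24 h peaks of 25, 22 and 190 tags. With every list cut to its best-scored 701 peaks the 24 h list held 3 of the 7, where it held 11.8% of all genes. CLR-1-V5 held gh61-3 and gh61-4, which were also the 2 genes present in all 3 CLR-1-GFP lists on Avicel at 4 h. Its summits lay 509 and 471 bp upstream, against 509 to 580 and 436 to 462 bp in CLR-1-GFP. For CLR-2 all 7 genes were in the 24 h list and in all 3 lists at 4 h, and the 24 h summits of gh61-4, gh61-5 and NCU07898 fell within the range at 4 h. The strain also differed between the CLR-2 times, and strain and time cannot be told apart.

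Several of these peaks lie between genes that run apart. The peaks of gh61-1 were also named beside NCU02239 in 6 lists, those of NCU07898 beside NCU07897 in 6, those of gh61-4 beside NCU01049 in 9 and those of cdh-1 beside NCU00207 in 9. The start codons of these pairs are 1373, 1439, 1795 and 2092 bp apart, and each neighbour is on the opposite strand from its partner. A peak there cannot be given to one gene of the pair by position. No neighbour on the opposite strand was named beside the peaks of gh61-2 and gh61-3, and for NCU08761, named beside 1 peak of gh61-5, the strand could not be placed.

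Related genes were counted by the same rule. Of 9 other genes, 8 for monooxygenases and cdh-2 (NCU05923) for a further cellobiose dehydrogenase, CLR-1-GFP called 8 at 24 h, against 72.8% of all genes. CLR-1-V5 called 2, against 13.1%, and CLR-1-GFP at 4 h called 4 on Avicel, against 19.7%, and 1 on sucrose, against 8.61%. CLR-2 called 7 at 24 h, against 26.6%, and 6 at 4 h, against 18.7%. XLR-1 called 2 on Avicel, against 34.9%, and 1 on xylan, against 10.2%, so its counts are near or below the background. With summits upstream within 1500 bp, CLR-2 at 4 h called 2 of the 9, against 3.89% of placed genes. Those in every list of a replicated group were gh61-9 (NCU05969) and NCU07974 in CLR-1 on Avicel, gh61-9 on sucrose, gh61-6 (NCU03328) and NCU07974 in CLR-2, and NCU02344 in XLR-1 on Avicel. The strongest folds of gh61-9 were 7.23 to 8.96 on Avicel and 3.12 to 4.79 on sucrose, and those of gh61-6 in CLR-2 were 0.24 to 3.19. In CLR-1 on Avicel NCU07974 had 3.37 to 5.35 and in CLR-2 1.06 to 2.73, and NCU02344 had 9.15 to 13.4 in XLR-1. The second dehydrogenase gene, cdh-2, was in 1 of 3 CLR-2 lists at 4 h with a fold of 1.95 and in none of the CLR-1 lists at 4 h.

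Of 10 genes for cellulases and beta-glucosidases CLR-1-GFP called 9 at 24 h, against 72.8% of all genes, and CLR-1-V5 6, against 13.1%. CLR-1-GFP at 4 h called 7 on Avicel, against 19.7%, and 4 on sucrose, against 8.61%. CLR-2 called 10 at 24 h, against 26.6%, and 8 at 4 h, against 18.7%. XLR-1 called 2 on Avicel, against 34.9%, and 3 on xylan, against 10.2%. By summits upstream within 1500 bp CLR-2 called 10 of the 10 at 24 h and 8 at 4 h, against 11.3% and 3.89% of placed genes. Upstream CLR-2 summits were thus not particular to the 7 genes. The cellobiohydrolase genes cbh-1 (NCU07340), gh6-2 (NCU09680) and gh6-3 (NCU07190), the endoglucanase gene gh7-1 (NCU05057) and the beta-glucosidase gene gh1-1 (NCU00130) were in 3 of 3 lists of CLR-1 on Avicel and of CLR-2 at 4 h. Their CLR-1 folds were 13.4 to 28.8 for cbh-1, 9.22 to 19.0 for gh6-2, 26.2 to 27.7 for gh6-3, 29.0 to 88.0 for gh7-1 and 20.2 to 27.7 for gh1-1. The endoglucanase gene gh5-1 (NCU00762) was in 3 of 3 CLR-2 lists at 4 h, and the beta-glucosidase gene gh3-3 (NCU08755) in 3 of 3 CLR-1 lists on Avicel. The strongest CLR-2 folds of the 10 genes at 24 h ran from 2.62 for gh3-3 to 19.07 for gh5-1, against 8.39 to 20.12 for the 7 genes. Those of cbh-1 and gh7-1 were 17.64 and 15.39. On sucrose gh6-3, gh7-1, gh1-1 and gh3-3 were in both CLR-1 lists, where gh6-3 had folds of 3.88 to 11.2, gh7-1 3.90 to 16.3, gh1-1 3.68 to 11.9 and gh3-3 3.78 to 9.11. Gene gh1-1 was in 3 of 3 XLR-1 lists on each carbon source, with folds of 9.55 to 28.9 on Avicel and 40.2 to 78.3 on xylan. It thus had XLR-1 peaks in the xylan lists that held none of the 7 genes.

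Likeness between genes was described by Spearman's rho over the 17 lists of the score percentile of a gene's strongest peak within 3000 bp, set to 0 without one, among 5684 genes with a peak in at least 3 lists. The points share lists and their depth, so rho is given without a test, and genes within 20 kb were left out. For gh61-1 the most alike were NCU00207, the neighbour of cdh-1, at 0.978 and gh5-1 at 0.941. For gh61-4 they were NCU16941 at 0.979 and NCU09679 at 0.968, and for gh61-5 NCU07736 at 0.978 and NCU07897, the neighbour of NCU07898, at 0.972. For NCU07898 they were gh61-5 at 0.949 and NCU07736 at 0.934, and for cdh-1 gh5-1 at 0.907 and NCU05955 at 0.899. For gh61-3 they were NCU02095 at 0.882 and NCU07493 at 0.861, and for gh61-2 NCU01655 at 0.914 and NCU07615 at 0.91. Among the 7 genes gh61-2 had rho of 0.223 to 0.664 with the others, and gh61-3 had 0.223 to 0.698. The remaining genes, gh61-1, gh61-4, gh61-5, NCU07898 and cdh-1, had 0.768 to 0.949 with each other.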

How the data were processed

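The submitters' processing notes name Bowtie2 as the aligner, and the file headers name MACS as the caller of each peak list. For their versions, settings and control library, the sources used here give nothing. Each list gives a deposited count of tags in a peak. The score, deposited per peak, is 10 times the -log10 of the p-value per the file headers. Fold enrichment is the authors' ratio. The authors give the false discovery rate (FDR) in percent, except in 1 list. Total reads are not in the files, so depth is unknown and no interval or floor is given.

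Groups came from the labels, and lists keep the numbers of the deposited tables. The 5 samples without a list (inputs and mock pulldowns) were not analysed here. Positions are on NC12. Strand and start codon came from the deposited gene coordinates (6871 genes) or distances (917), and 1941 genes could be called only when named. Counted from either gene end, these would bring the share of all genes called to 83.1% for CLR-1 at 24 h, 14.3% for CLR-1-V5, 21.5% for CLR-1 at 4 h, 9.26% on sucrose, 30% and 21.6% for CLR-2 at 24 h and 4 h, and 39.6% and 11.7% for XLR-1 on Avicel and xylan. Distances ran from the peak start in 5 lists and from the summit in 11 (tolerance 3 bp), so positions were recomputed from summits. The gene columns of XLR-1 xylan list 2 copied those of list 1 (718 of 718 entries) and were not used.

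Counts per list were compared by exact two-sided permutation tests over lists with Benjamini-Hochberg adjustment over 5 comparisons (threshold 0.05), and p-values measure the spread between lists. The assignment code was run on simulated peaks set at known distances from the same start codons (200 of 200 in the window recovered, 0 of 200 outside called). This checks the code alone, not the start codons or the gene columns. Named were the 7 genes, members of the related lists present in every list of a replicated group, neighbours named beside the same peaks, and for each gene the 2 most alike. The genes, lists and rules were chosen with earlier results of these data known. Alternatives were score, fold and FDR limits (100 or more, 5 or more, and 5% or less), lists cut to 701 peaks, naming alone, other windows and each list left out. Tables were handled with pandas 2.3.3 and numpy 2.4.6 in Python 3.11.15, tests run with scipy 1.17.1, p-values adjusted with statsmodels 0.14.6 and figures drawn with matplotlib 3.10.9.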

Additional observations from a re-analysis of the deposited data

How the results depend on the processing

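Of the alternative values for the group calls 73 stayed within 1.5 times the reported count and 12 did not. With lists of 701 peaks CLR-1 at 24 h called 3 genes, where it listed 11.8% of all genes, against 72.8% in full. CLR-2 lists 1, 2 and 3 at 4 h then held 0, 6 and 7 of the 7 genes, against 3.06%, 4.16% and 6.86% of all genes. At a fold of at least 5 CLR-1 on sucrose called 0 and CLR-2 at 4 h called 3, and at an FDR of at most 5% CLR-2 at 4 h called 3, with 94.76% of the folds of its list 1 below 1 and a median FDR of 100% in its list 2. CLR-2 lists 1, 2 and 3 at 4 h kept 0%, 0.545% and 0.38% of all genes at that fold and 10.3%, 0.0308% and 16.3% at that FDR, and the sucrose lists kept 6.21% and 0% at that fold. XLR-1 on Avicel called 2 with summits within 1500 bp, 0 with summits upstream within 3000 bp and 0 upstream within 1500 bp, the last setting chosen after seeing the data. Its lists 1, 2 and 3 held 17.7%, 6.97% and 47.2% of all genes within 1500 bp. They held 13.9%, 6.29% and 39.9% upstream within 3000 bp, and 7.12%, 3.35% and 21.7% upstream within 1500 bp. With 1 list left out CLR-1 on Avicel called 2 to 4 (2 without list 1 or list 3) and XLR-1 on Avicel 2 to 4 (2 without list 1 or list 3). For these the share of all genes called is not given. CLR-1 on sucrose called 3 without list 1, against 33.1% of all genes, and 1 without list 2, against 13.4%.

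No comparison of genes per list can reach the threshold with this number of lists. The difference between CLR-1 and CLR-2 turned to 1 at a fold of at least 5 and 0.667 at an FDR of at most 5%, where the CLR-1 lists kept 15.2% to 16.1% and 15.8% to 23.7% of all genes. That between CLR-1 and XLR-1 turned to 0.333 in equally long lists, 0.333 within 1500 bp, 2.67 upstream within 3000 bp and 3.67 upstream within 1500 bp, and ran from -1.5 to 1 with 1 list left out. That between CLR-2 and XLR-1 turned to -1.33 at a fold of at least 5 and -1 at an FDR of at most 5%. The cause was not tested. The difference between carbon sources kept its direction in CLR-1 under all settings run. In XLR-1 its direction could not turn, because the xylan lists held none of the genes under the main rule. The alternatives only removed peaks or lists, so the xylan count could not rise, and the XLR-1 direction was not tested by them. The FDR setting gave no value for CLR-1 at 24 h, whose list has no FDR. No paired analysis was possible because the list numbers of the tables are not tied to the libraries' own numbers. Peaks of 10 to 30 tags, as for XLR-1 and for CLR-1 at 24 h, rest on few reads.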
